A study of Mus musculus with 24 samples.

Results

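The endoplasmic reticulum (ER) chaperone and unfolded protein response genes described here were 35 genes picked by symbol from the count and FPKM tables of mouse hepatocytes, out of 55421 genes listed. They comprised 4 genes at the head of the unfolded protein response (the 3 sensors Ern1, Eif2ak3 and Atf6, and the transcription factor gene Xbp1), 16 chaperones and folding enzymes, 8 genes of ER-associated degradation and 7 genes of translocation into and export from the ER. All 35 passed the filter on low counts, so none was lost before testing. The study examined the effect of a high-fat diet on the hepatocyte transcriptome of old mice, with and without the mTOR inhibitor rapamycin, and RNA was sequenced from hepatocytes of 24 male C57BL/6J mice. Mice had been given encapsulated rapamycin (eRapa, 42 ppm in the food) or its vehicle from 4 months of age. From 18 months, 8 vehicle mice remained on the normal diet (ND+veh), and for 9 weeks fat supplied 60% of the calories of the others, of which 7 received vehicle (HFD+veh) and 9 received eRapa (HFD+eRapa). No group received eRapa on normal diet, so an effect of eRapa without the high-fat diet is not analysed here. All animals were old at collection, and each library came from 1 animal.

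Secreted and membrane proteins enter the ER through the Sec61 channel, fold there with the help of chaperones, and leave in COPII-coated vesicles. When unfolded proteins accumulate, the sensors IRE1 (encoded by Ern1), PERK (Eif2ak3) and ATF6 slow translation and induce genes for chaperones, degradation and transport, in part through the transcription factor XBP1, whose messenger RNA IRE1 splices. Hepatocytes secrete most plasma proteins and lipoproteins and therefore carry a large ER and high levels of these transcripts.

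Many ER chaperone promoters carry short elements through which ATF6 and XBP1 act. In the RefSeq promoter windows (build GRCm38.p6, 250 bases before to 50 bases after each annotated start, 300 bases in all), 29 of the 35 genes had an entry, with 31 windows. Atf6, Derl1, Hyou1, Manf, Sec61a1 and Ssr2 had none. Both strands were searched for 3 motifs. They were the ER stress response element ERSE (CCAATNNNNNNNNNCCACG), ERSE-II (ATTGG, 1 base of any kind and CCACG) and the core of the unfolded protein response element, UPRE (TGACGTG). ERSE was found in 9 of the 31 windows (29.0%) and in 39 of all 32851 promoter windows (0.119%). ERSE-II was found in 2 member windows (6.45%) and in 12 of all windows (0.0365%), and the UPRE core in 2 member windows (6.45%) and in 661 of all (2.01%). In these windows no match overlapped another. A match is a description of the letters and not evidence of a bound factor.

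The windows of Hspa5, Creld2, Syvn1 and Dnajb11 are shown because they hold different motifs and belong to genes that differed in whether they were called in the counts that follow. Each is written in the direction of its gene, and capitals mark the fixed letters of the motifs. In Hspa5 (chr2:34771840-34772139, forward strand) the first capitals are the UPRE core and the next an ERSE. In Creld2 (chr15:88819396-88819695, forward strand) the ERSE lies on the opposite strand and reads as its reverse complement. Syvn1 (chr19:6046326-6046625, forward strand) holds an ERSE near the start, and Dnajb11 (chr16:22857595-22857894, forward strand) an ERSE-II just after it.
Hspa5: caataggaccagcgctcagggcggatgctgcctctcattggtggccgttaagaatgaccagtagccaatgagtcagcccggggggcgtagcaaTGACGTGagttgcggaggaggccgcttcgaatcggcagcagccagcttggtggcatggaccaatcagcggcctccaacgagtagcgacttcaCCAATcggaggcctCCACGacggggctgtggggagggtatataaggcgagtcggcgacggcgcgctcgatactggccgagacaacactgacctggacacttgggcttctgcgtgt
Creld2: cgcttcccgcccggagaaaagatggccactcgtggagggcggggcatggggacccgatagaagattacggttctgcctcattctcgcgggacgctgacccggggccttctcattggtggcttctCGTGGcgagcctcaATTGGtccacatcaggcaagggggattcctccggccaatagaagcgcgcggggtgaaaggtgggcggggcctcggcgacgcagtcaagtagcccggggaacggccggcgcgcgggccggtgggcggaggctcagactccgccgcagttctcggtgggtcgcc
Syvn1: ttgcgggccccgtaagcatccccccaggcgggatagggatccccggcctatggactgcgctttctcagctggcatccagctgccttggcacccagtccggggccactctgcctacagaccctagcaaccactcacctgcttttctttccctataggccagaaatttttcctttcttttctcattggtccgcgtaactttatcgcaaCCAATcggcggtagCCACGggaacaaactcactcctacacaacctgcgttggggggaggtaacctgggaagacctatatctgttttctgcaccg
Dnajb11: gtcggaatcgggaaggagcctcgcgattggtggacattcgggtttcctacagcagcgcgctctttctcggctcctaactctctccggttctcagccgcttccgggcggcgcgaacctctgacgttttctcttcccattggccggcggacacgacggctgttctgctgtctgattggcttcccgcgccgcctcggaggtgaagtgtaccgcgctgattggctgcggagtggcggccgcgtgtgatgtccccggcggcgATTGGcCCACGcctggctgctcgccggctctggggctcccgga

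The ERSE matches of the remaining members are shown to compare the bases between the fixed ends, each read in the direction that starts with CCAAT. Hsp90b1 held 2 of them, named far and near by their distance from the start.
Calr: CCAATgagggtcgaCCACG
Canx: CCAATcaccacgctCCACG
Derl3: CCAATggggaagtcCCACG
Dnajc3: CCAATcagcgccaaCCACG
Hsp90b1, far: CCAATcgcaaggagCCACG
Hsp90b1, near: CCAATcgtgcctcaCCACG
Pdia6: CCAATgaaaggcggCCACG
The ERSE-II of Herpud1 read ATTGGgCCACG, against ATTGGcCCACG in Dnajb11. The 9 bases between the ends of ERSE differed among all of these sites.

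**Figure D1:**
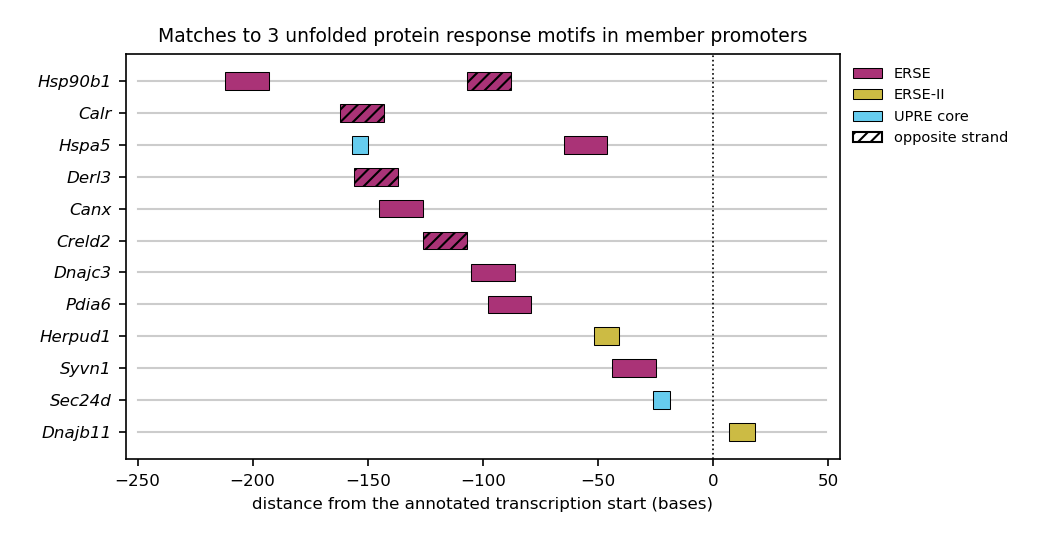
Positions of the 3 motifs in the promoter windows of the 12 member genes with a match, in bases from the annotated start (dotted line); hatching marks a match on the strand opposite to the gene. The ERSE matches lie between 212 and 26 bases before the start, and the ERSE-II of Dnajb11 lies 7 to 17 bases after it.

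Levels were compared between genes per length, as FPKM (fragments scaled to the length of the gene and to the fragments of the library). In ND+veh the highest mean levels were those of P4hb, which encodes protein disulfide isomerase (579 ± 108 FPKM, SD, n = 8), and Hspa5, which encodes the chaperone BiP (568 ± 187). The chaperones Calr (440 ± 114) and Hsp90b1 (387 ± 129) came next. Neighbours among these 4 differed by less than the larger of their SDs. The genes at the head of the response stood low in the order, with 13.3 ± 4.16 FPKM for Ern1, 14.3 ± 1.75 for Atf6 and 6.30 ± 2.35 for Eif2ak3, and only Xbp1 among them reached 130.2 ± 35.6. Summed over the 35 genes, the level was 4627 ± 1012 FPKM in ND+veh (SD, n = 8; from 3309 to 6180), 3561 ± 546 in HFD+veh (n = 7; from 2829 to 4101) and 3392 ± 427 in HFD+eRapa (n = 9; from 2873 to 4151). The ranges of the 3 groups overlapped.

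**Figure D2:**
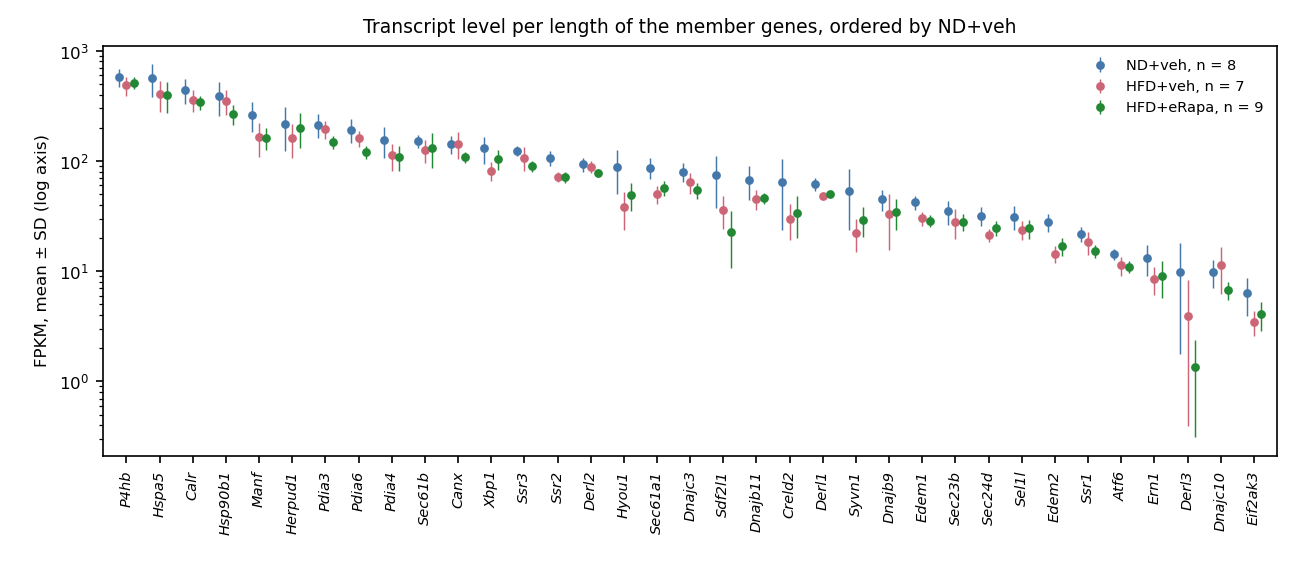
Mean FPKM of each member (log axis) in ND+veh (n = 8), HFD+veh (n = 7) and HFD+eRapa (n = 9), ordered by ND+veh; bars are the SD, with a lower bar longer than 0.9 of its mean shortened to that length. P4hb and Hspa5 lead at 579 and 568 FPKM in ND+veh, and Eif2ak3 is lowest at 6.30.

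Differences between groups were tested on the raw counts with edgeR in 1 fit of all 24 libraries, and a gene is termed called where the p adjusted over the 13847 genes tested was under 0.05. Values per animal are CPM, the counts of a gene relative to the library total after TMM scaling, and fold changes are on the log2 scale with their standard error (SE). Between HFD+veh and ND+veh, 16 of the 35 genes fell and none rose. Over all genes tested in this comparison 25.9% were called, 9.86% as lower and 16.0% as higher in HFD+veh. The 3 sensors and Xbp1 fell, with 5 of 16 chaperones and folding enzymes, 4 of 8 degradation genes and 3 of 7 translocation and export genes. The estimate was below 0 for 33 of the 35, the exceptions being Canx and Dnajc10, and the median log2 fold change was -0.43 against 0.05 for all genes tested. In bulk samples such as these, fewer cells of a type and less RNA per cell cannot be told apart.

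Total counts per library ran from 17739252 to 25945134. The summed CPM of 9 hepatocyte markers ran from 61976 to 166566 in ND+veh, from 102068 to 175022 in HFD+veh and from 57843 to 157356 in HFD+eRapa. The hepatocyte label of the samples was thus matched by abundant hepatocyte transcripts in every library. Of the other cell types, 12 macrophage markers summed to 51.7 to 1498 CPM in ND+veh, to 189 to 5780 in HFD+veh and to 18.4 to 1215 in HFD+eRapa. Of the 12, 4 were called as higher on the high-fat diet with vehicle and 9 as lower with eRapa on that diet, where 16.0% and 21.1% of all genes tested were called in these directions. Plasma cells are also rich in these ER transcripts, and their 8 markers summed to 4.88 to 32.7 CPM in ND+veh, 4.17 to 252 in HFD+veh and 0.788 to 48.2 in HFD+eRapa, with Tnfrsf17 at 0 in at least 12 of the 24 libraries. The remaining lists, with their lowest and highest sums in ND+veh, HFD+veh and HFD+eRapa, were 11 lymphocyte markers (1.48 to 42.6, 4.33 to 517 and 2.65 to 36.6 CPM, Gzma mostly at 0), 8 neutrophil markers (0.114 to 6.78, 2.11 to 48.9 and 0.0563 to 13.9, Ly6g and Mmp8 mostly at 0), 10 endothelial markers (118 to 624, 168 to 961 and 91.3 to 456), 10 stellate cell markers (45.7 to 318, 45.4 to 592 and 27.0 to 107) and 8 cholangiocyte markers (4.96 to 20.8, 13.2 to 363 and 11.9 to 59.7, Krt7 and Cftr mostly at 0). Of the markers of these other lists that passed the filter, 2 of 3 lymphocyte, 2 of 4 plasma cell, 3 of 4 neutrophil, 1 of 10 endothelial, 3 of 10 stellate cell and 3 of 3 cholangiocyte markers had a called rise in HFD+veh. In HFD+eRapa 2 of 3, 4 of 4, 2 of 4, 10 of 10, 10 of 10 and 1 of 3 of them, in the same order, were called lower than in HFD+veh. Against ND+veh, 6 of 10 stellate cell and 1 of 10 endothelial markers were called lower in HFD+eRapa and 1 of 3 cholangiocyte markers higher. Of all genes tested 6.54% were called lower and 6.93% higher there. Mitochondrial transcripts took a median of 4.93% of counts in ND+veh (4.38 to 8.15%), 7.72% in HFD+veh (4.79 to 9.70%) and 7.55% in HFD+eRapa (6.29 to 10.7%). Within HFD+veh, replicates 3, 4, 5 and 6 had the highest macrophage sums (3609, 2785, 3121 and 5780 CPM), and replicates 1, 2 and 7 had 189, 197 and 1043.

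**Figure D3:**
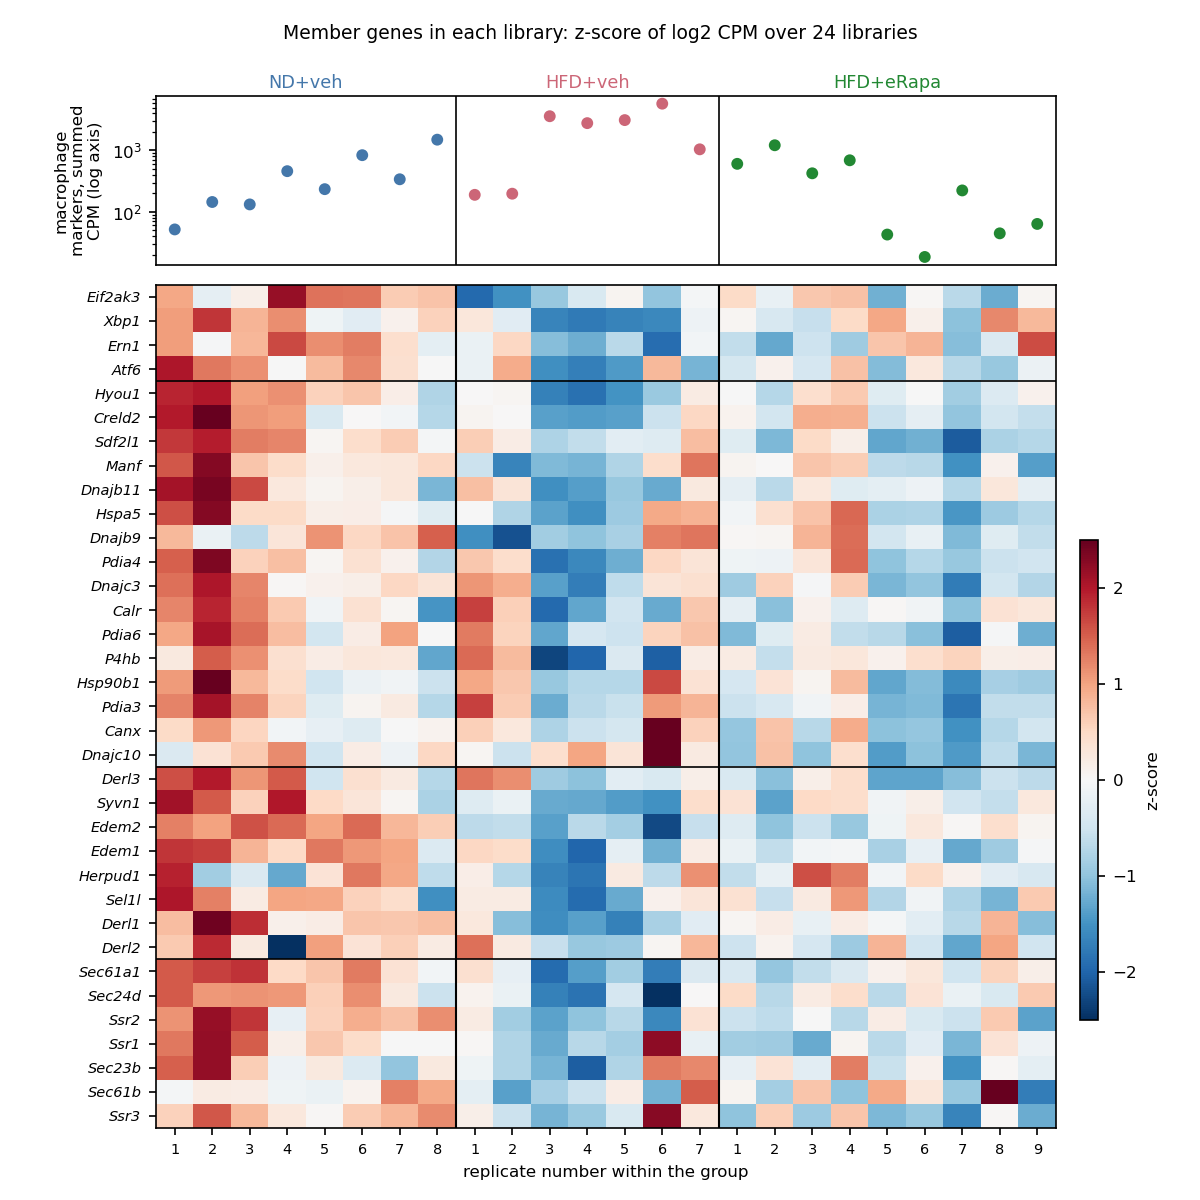
Each member's log2 CPM in the 24 libraries as a z-score over all libraries (colour), with sensors and Xbp1, chaperones and folding, degradation, and translocation and export separated by lines; the upper panel gives the summed CPM of 12 macrophage markers in the same library (log axis). Replicates 3 to 5 of HFD+veh are low for most members and have macrophage sums of 2785 to 3609 CPM, while replicate 6 (5780 CPM) is low for some members and high for Canx, Dnajc10, Ssr1 and Ssr3.

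Among the sensors, the largest fall was that of Eif2ak3 (ENSMUSG00000031668.14, GRCm38 chromosome 6, 70844515 to 70905245), the kinase PERK that phosphorylates the initiation factor eIF2 alpha. Its counts ran from 18.1 through a median of 26.2 to 41.9 CPM in ND+veh and from 9.91 through 14.0 to 20.1 in HFD+veh. Of the 7 HFD+veh animals 5 lay below every ND+veh animal, and 7 of the 8 ND+veh animals lay above every HFD+veh animal. The log2 fold change was -0.86 (SE 0.19, edgeR adjusted p = 0.00317). In HFD+eRapa the counts ran from 12.7 through 19.8 to 25.2 CPM, a log2 fold change of 0.34 against HFD+veh (SE 0.18, adjusted p = 0.159) and of -0.52 against ND+veh (SE 0.17, adjusted p = 0.0472).

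Xbp1 (ENSMUSG00000020484.19, chromosome 11, 5520659 to 5525893) encodes the transcription factor activated by IRE1. Its counts ran from 197 through 257 to 341 CPM in ND+veh and from 133 through 138 to 229 in HFD+veh. Replicates 3, 4, 5 and 6 of HFD+veh lay close together at 133 to 138 CPM, below every other animal, and replicates 1, 2 and 7 lay at 197 to 229, within the ND+veh range or level with its lowest animal. On the log2 scale it fell by 0.61 (SE 0.16, edgeR adjusted p = 0.00825). In HFD+eRapa the counts ran from 161 through 219 to 292 CPM, all 9 animals lay above the HFD+veh median, and the gene was called higher than in HFD+veh (log2 fold change 0.43, SE 0.15, adjusted p = 0.0311). Against ND+veh the difference of -0.17 was not called (SE 0.14, adjusted p = 0.490). Counts over the whole gene do not tell its spliced from its unspliced form.

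Ern1 encodes the kinase and endoribonuclease IRE1 alpha, and had 59.4, 83.8 and 103 CPM (lowest, median and highest) in ND+veh against 36.9, 52.6 and 73.9 in HFD+veh. All 7 HFD+veh animals were below the ND+veh median, although the ranges overlapped. The fall was -0.58 on the log2 scale (SE 0.18, edgeR adjusted p = 0.0220). This call was lost with voom (adjusted p = 0.0631), with the immune marker covariate described below (0.240) and with ND+veh replicate 4 and HFD+veh replicate 6 both left out (0.0805, a setting chosen after seeing the data). In HFD+eRapa the values were 44.1, 54.9 and 102 CPM, and neither the difference from HFD+veh (0.22, SE 0.17, adjusted p = 0.342) nor that from ND+veh (-0.36, SE 0.17, adjusted p = 0.173) was called.

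Atf6, which encodes the sensor that is cut in the Golgi to release a transcription factor, had 96.3, 112 and 132 CPM in ND+veh and 73.8, 80.3 and 111 in HFD+veh. Of the 7 HFD+veh animals 5 were below all ND+veh animals. The log2 fold change of -0.32 was the smallest among the 3 sensors and Xbp1 (SE 0.10, edgeR adjusted p = 0.0259). With 81.3, 90.4 and 108 CPM in HFD+eRapa, the difference was 0.06 from HFD+veh (SE 0.10, adjusted p = 0.697) and -0.26 from ND+veh (SE 0.10, adjusted p = 0.0706), neither of them called.

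**Figure D4:**
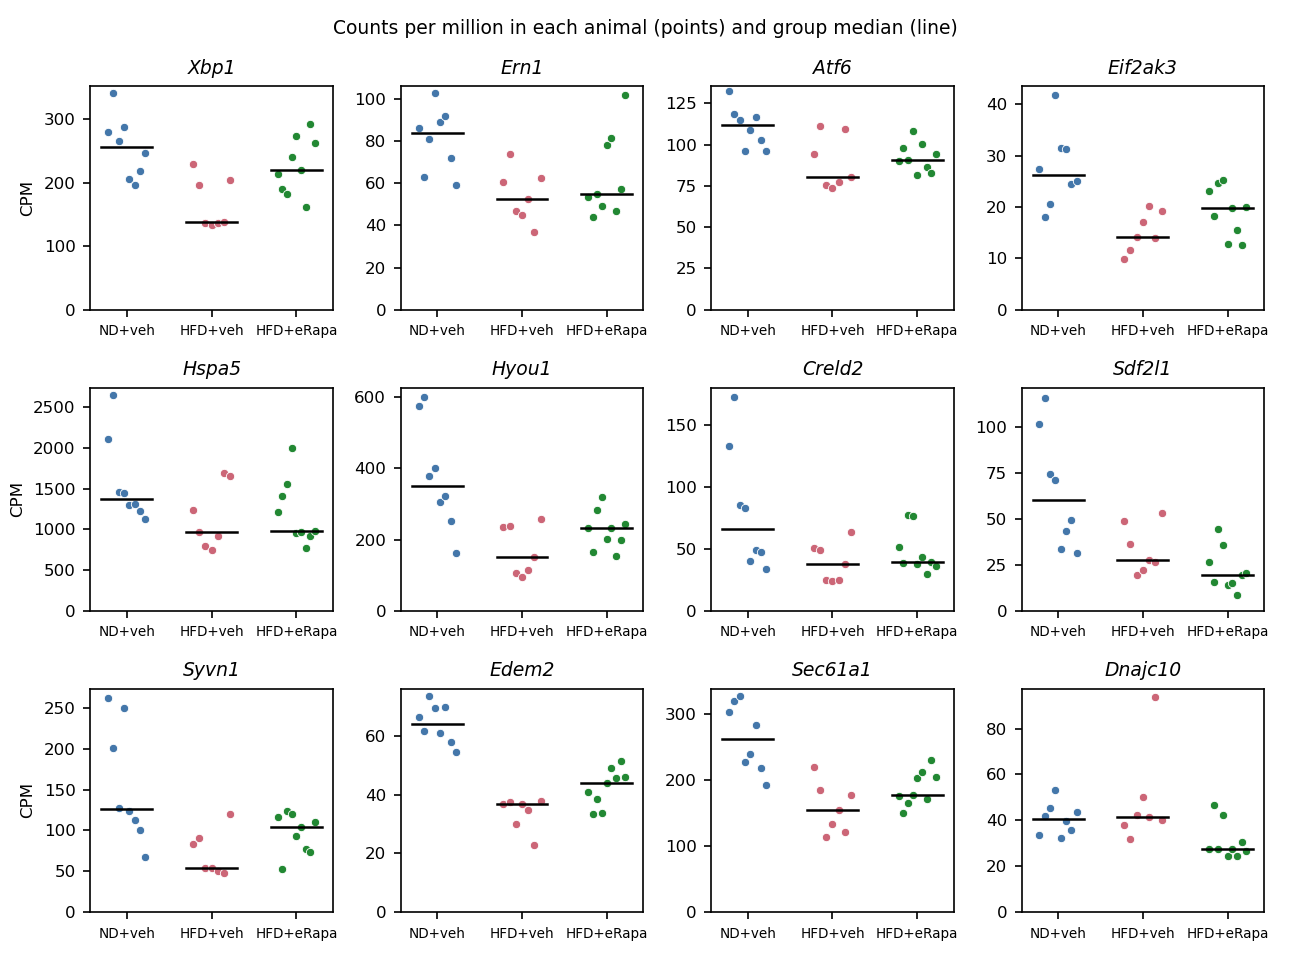
CPM of each animal (points) and the group median (line) for the 3 sensors and Xbp1, 4 chaperones and folding genes, Syvn1, Edem2, Sec61a1 and Dnajc10, on axes that start at 0. All HFD+veh animals lie below all ND+veh animals for Edem2 (at most 37.8 against at least 54.4 CPM), the groups overlap for the other genes, and 1 HFD+veh animal stands at 93.9 CPM for Dnajc10.

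Among chaperones and folding factors, Hyou1 (ENSMUSG00000032115.14, chromosome 9, 44379490 to 44392369) fell most. It encodes GRP170, a nucleotide exchange factor for BiP. Counts were 162, 351 and 601 CPM in ND+veh, against 96.0, 151 and 256 in HFD+veh and 154, 231 and 318 in HFD+eRapa. All HFD+veh animals were below the ND+veh median, and 6 of 8 ND+veh animals were above every HFD+veh animal. As for Xbp1, HFD+veh replicates 3, 4, 5 and 6 were the lowest (96.0 to 151 CPM) and replicates 1, 2 and 7 higher (234 to 256). HFD+veh differed from ND+veh by -1.13 on the log2 scale (SE 0.26, edgeR adjusted p = 0.00450), and HFD+eRapa differed by 0.40 from HFD+veh (SE 0.25, adjusted p = 0.229) and by -0.73 from ND+veh (SE 0.24, adjusted p = 0.0430).

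Creld2, which encodes an ER-resident protein, had 34.1, 66.4 and 173 CPM in ND+veh and 24.2, 37.4 and 63.9 in HFD+veh. Its fall was -1.04 (SE 0.33, edgeR adjusted p = 0.0246). With 30.0, 39.1 and 77.6 CPM in HFD+eRapa, the differences of 0.29 from HFD+veh (SE 0.32, adjusted p = 0.517) and of -0.75 from ND+veh (SE 0.30, adjusted p = 0.107) were not called. Among ND+veh animals, replicates 1 and 2 stood high at 133 and 173 CPM, and the groups overlapped.

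Sdf2l1, a partner of ER J-domain proteins, showed another order of the groups. It had 31.4, 60.4 and 116 CPM in ND+veh, 19.7, 27.6 and 53.5 in HFD+veh and 8.49, 19.5 and 44.6 in HFD+eRapa. Of the 9 HFD+eRapa animals 7 were below all ND+veh animals. The log2 fold change was -0.96 between HFD+veh and ND+veh (SE 0.34, edgeR adjusted p = 0.0394) and -1.55 between HFD+eRapa and ND+veh (SE 0.32, adjusted p = 0.00171). Against HFD+veh the HFD+eRapa estimate was -0.59 and not called (SE 0.32, adjusted p = 0.167).

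Manf, which encodes a secreted ER stress-inducible factor that binds BiP, had 124, 140 and 255 CPM in ND+veh and 68.2, 92.2 and 186 in HFD+veh, which is -0.58 on the log2 scale (SE 0.21, edgeR adjusted p = 0.0478). Dnajb11, a J-domain co-chaperone of BiP, had 72.3, 106 and 188 CPM in ND+veh and 64.9, 76.1 and 121 in HFD+veh, a log2 fold change of -0.52 (SE 0.18, adjusted p = 0.0320). In HFD+eRapa the medians were 119 CPM for Manf and 92.6 CPM for Dnajb11, and neither gene was called in a comparison with eRapa. For both genes the ranges of HFD+veh and ND+veh overlapped. Replicates 1, 2 and 3 of ND+veh had 174, 188 and 155 CPM of Dnajb11, and the other ND+veh animals, at 72.3 to 106, lay within the HFD+veh range. Calr, Canx, Hsp90b1 and Pdia3 were also highest in these 3 ND+veh animals, whereas Xbp1, Pdia4, Pdia6 and P4hb were not. The same animals had the lowest macrophage sums of ND+veh (51.7, 145 and 132 CPM), whose part was not tested.

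Hspa5, the gene of the master chaperone BiP, was not called in any comparison. Counts were 1123, 1379 and 2648 CPM in ND+veh, 749, 969 and 1692 in HFD+veh and 766, 981 and 1995 in HFD+eRapa. Of the HFD+veh animals, replicates 6 and 7 stood at 1692 and 1656 CPM and replicates 3, 4 and 5 at 749 to 920, so that 4 of 7 were below every ND+veh animal and 2 above the ND+veh median. The log2 fold changes were -0.46 for HFD+veh against ND+veh (SE 0.23, edgeR adjusted p = 0.139), 0.06 for HFD+eRapa against HFD+veh (SE 0.22, adjusted p = 0.855) and -0.40 for HFD+eRapa against ND+veh (SE 0.21, adjusted p = 0.249). Within HFD+eRapa, replicates 1 to 4 had 1211 to 1995 CPM of Hspa5 and replicates 5 to 9 had 766 to 981. Hsp90b1, Pdia3, Pdia4 and Dnajb9 split in the same way, whereas Xbp1, Calr, Canx, Pdia6 and P4hb did not. Macrophage sums were 424 to 1215 CPM in replicates 1 to 4 and 18.4 to 223 in replicates 5 to 9, and their part was not tested.

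The other chaperones of the ER lumen and membrane likewise did not pass the test for HFD+veh against ND+veh. Their log2 fold changes were -0.11 for Hsp90b1, the ER form of HSP90, -0.23 for Calr and 0.10 for Canx, the lectin chaperones calreticulin and calnexin. For the disulfide isomerases they were -0.08 for Pdia3, -0.43 for Pdia4, -0.21 for Pdia6 and -0.20 for P4hb. The J-domain proteins Dnajb9 and Dnajc3 had -0.44 and -0.27. Adjusted p-values of these 9 genes ran from 0.124 for Pdia4 to 0.691 for Pdia3 (edgeR). Dnajc10, an ER disulfide reductase with a J domain, had the highest estimate of all members, 0.24 (SE 0.19, edgeR adjusted p = 0.353). Its HFD+veh counts were 31.7, 41.2 and 93.9 CPM, with replicate 6 at 93.9 and the next at 50.3.

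In ER-associated degradation, Edem2 stood apart. Edem2 (ENSMUSG00000038312.10, chromosome 2, 155701677 to 155729475), whose product starts mannose trimming of misfolded glycoproteins, had 54.4, 63.9 and 73.5 CPM in ND+veh and 22.7, 36.7 and 37.8 in HFD+veh. All 7 HFD+veh animals lay below all 8 ND+veh animals, and Edem2 was the only member without overlap in this comparison. Of all genes tested 2.44% did not overlap, 1.23% with HFD+veh lower and 1.21% with HFD+veh higher. On the log2 scale the fall was -0.93 (SE 0.11, edgeR adjusted p = 1.35e-05). In HFD+eRapa the counts were 33.3, 43.8 and 51.3 CPM, with 7 of 9 animals above every HFD+veh animal. Edem2 was called higher than in HFD+veh (log2 fold change 0.33, SE 0.11, adjusted p = 0.0246) and lower than in ND+veh (-0.60, SE 0.11, adjusted p = 0.000395), and here too all 9 HFD+eRapa animals were below all ND+veh animals. Between these groups 3.37% of all genes tested did not overlap, 1.23% with HFD+eRapa lower and 2.14% with HFD+eRapa higher.

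Syvn1, the ubiquitin ligase HRD1 at the centre of the degradation complex, had 67.5, 126 and 263 CPM in ND+veh and 47.8, 53.9 and 121 in HFD+veh. Replicates 3 to 6 of HFD+veh lay at 47.8 to 53.9 CPM and were below all ND+veh animals, while replicate 7 reached 121. Syvn1 thus differed by -1.12 on the log2 scale (SE 0.27, edgeR adjusted p = 0.00595). In HFD+eRapa it had 52.4, 104.5 and 124 CPM, and the differences of 0.44 from HFD+veh (SE 0.26, adjusted p = 0.204) and -0.68 from ND+veh (SE 0.25, adjusted p = 0.0723) were not called.

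Edem1, a relative of Edem2, had 196, 260 and 305 CPM in ND+veh, 139, 200.2 and 233 in HFD+veh and 161, 201 and 209 in HFD+eRapa. It was called lower than in ND+veh in both groups on the high-fat diet, with log2 fold changes of -0.45 in HFD+veh (SE 0.12, edgeR adjusted p = 0.0101) and -0.44 in HFD+eRapa (SE 0.11, adjusted p = 0.00795). The estimate with eRapa on the high-fat diet was 0.01 (SE 0.11, adjusted p = 0.977). Derl1, a membrane protein of the retrotranslocation channel, had 184, 197 and 242 CPM in ND+veh and 148, 159 and 187 in HFD+veh, with 6 of 7 HFD+veh animals below every ND+veh animal. Its log2 fold change was -0.32 (SE 0.08, adjusted p = 0.00590).

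No other degradation gene was called for the diet with vehicle. Sel1l, the adaptor of HRD1, differed by -0.37 on the log2 scale (SE 0.15, edgeR adjusted p = 0.0614). Herpud1, an HRD1 partner, had -0.39 (SE 0.28, adjusted p = 0.313), and Derl2, a relative of Derl1, -0.07 (SE 0.12, adjusted p = 0.686). Derl3, the third derlin, was the member with the lowest FPKM in HFD+eRapa (1.35 ± 1.04, SD, n = 9), with 1.09, 6.29 and 23.1 CPM in ND+veh, 0.751, 1.85 and 11.3 in HFD+veh and 0.507, 1.16 and 4.18 in HFD+eRapa. It was called lower in HFD+eRapa than in ND+veh, by -2.53 on the log2 scale (SE 0.66, adjusted p = 0.0106), with 4 of 9 HFD+eRapa animals below every ND+veh animal. For HFD+veh against ND+veh the estimate of -1.12 was not called (SE 0.68, adjusted p = 0.221).

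Of the translocation and export genes, Sec61a1 (ENSMUSG00000030082.14, chromosome 6, 88503579 to 88518905), which encodes the pore of the translocation channel, fell most. It had 193, 261 and 327 CPM in ND+veh, 114, 154 and 219 in HFD+veh and 149.7, 177 and 230.3 in HFD+eRapa. All HFD+veh animals but replicate 1 were below every ND+veh animal. The log2 fold change was -0.74 (SE 0.15, edgeR adjusted p = 0.00133) in HFD+veh and -0.49 in HFD+eRapa (SE 0.13, adjusted p = 0.0152), each against ND+veh, and 0.25 between the groups on the high-fat diet (SE 0.14, adjusted p = 0.176).

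Sec24d, a cargo-binding subunit of the COPII coat, had 91.1, 133 and 147 CPM in ND+veh and 57.1, 93.4 and 105 in HFD+veh, and 7 of 8 ND+veh animals lay above every HFD+veh animal. Its log2 fold change was -0.56 (SE 0.13, edgeR adjusted p = 0.00506). Ssr2, a subunit of the translocon-associated protein complex, had 69.5, 90.3 and 116 CPM in ND+veh, 51.4, 60.1 and 78.4 in HFD+veh and 54.5, 64.6 and 83.4 in HFD+eRapa, again with 7 of 8 ND+veh animals above every HFD+veh animal. It was called lower than in ND+veh both in HFD+veh (-0.54, SE 0.11, adjusted p = 0.00237) and in HFD+eRapa (-0.44, SE 0.11, adjusted p = 0.00594). The other subunits Ssr1 (-0.24) and Ssr3 (-0.18), the COPII subunit Sec23b (-0.23) and the small channel subunit Sec61b (-0.20) did not pass in HFD+veh against ND+veh, with edgeR adjusted p-values from 0.136 to 0.424.

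**Figure D5:**
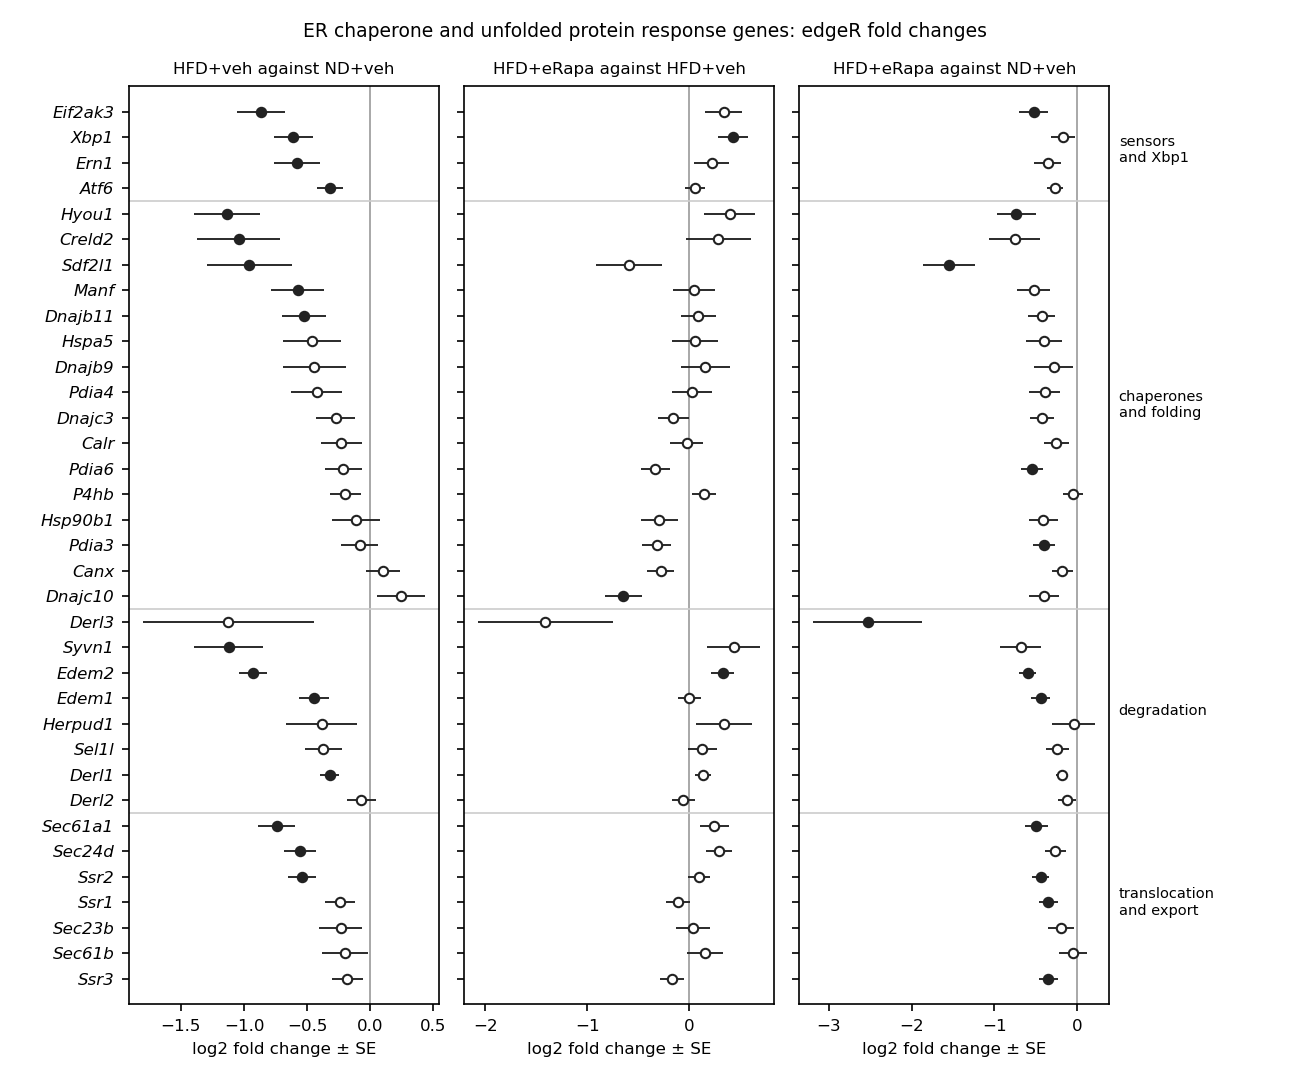
Log2 fold change and SE of each member in the 3 comparisons (edgeR), grouped by role and ordered by the first comparison; filled points are called, and the 3 horizontal scales differ. In HFD+veh against ND+veh 33 of 35 points lie left of 0 and 16 are filled, in HFD+eRapa against HFD+veh 3 are filled, and in HFD+eRapa against ND+veh all 35 lie left of 0 and 12 are filled.

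HFD+eRapa was then set beside HFD+veh, which shows the difference with eRapa within the high-fat diet. This comparison shares the HFD+veh animals with the first, so the direction of a member in one is not independent of the other. Of the 35 genes, Xbp1 and Edem2 rose and Dnajc10 fell, while 32.0% of all genes tested were called, 10.9% as higher and 21.1% as lower in HFD+eRapa. The median log2 fold change of the members was 0.06, against -0.04 for all genes tested, with 23 estimates above and 12 below 0. No member separated the groups without overlap, which 2.59% of all genes tested did, 1.29% with HFD+eRapa higher and 1.29% with HFD+eRapa lower. By role, the median was 0.28 for the 3 sensors and Xbp1, 0.0043 for the 16 chaperones and folding enzymes, 0.14 for the 8 degradation genes and 0.10 for the 7 translocation and export genes. Members that were not called included Hyou1, Syvn1 and Eif2ak3, with the estimates given above.

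Dnajc10 had 32.2, 40.6 and 53.3 CPM in ND+veh and 24.4, 27.6 and 46.6 in HFD+eRapa, where 7 of 9 animals lay below every HFD+veh animal. Its log2 fold change against HFD+veh was -0.64 (SE 0.19, edgeR adjusted p = 0.0111). Without replicate 6 of HFD+veh, the animal at 93.9 CPM, it was -0.36 and no longer called (adjusted p = 0.0769). The calls of Xbp1 and Edem2 rested on thin margins as well. The call of Edem2 was lost without HFD+eRapa replicate 8 (adjusted p = 0.0510), and that of Xbp1 without any 1 of 7 libraries, namely HFD+veh replicates 3, 4, 5 and 6 and HFD+eRapa replicates 5, 8 and 9 (adjusted p from 0.0524 to 0.0695). With the level of immune markers in each library as a covariate, the log2 fold change was 0.15 for Xbp1 (adjusted p = 0.580), 0.11 for Edem2 (adjusted p = 0.625) and -0.24 for Dnajc10 (adjusted p = 0.473), all edgeR. Over all genes tested 6.56% were called with this covariate, in place of 32.0%. The marker level, a mean z-score, ran from -1.61 to 0.66 in HFD+eRapa and from -0.50 to 1.73 in HFD+veh. It was thus not independent of eRapa, and this fit cannot tell the part of other cells from that of eRapa.

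The third comparison set HFD+eRapa beside ND+veh and shares the ND+veh animals with the first. In it 12 of 35 genes fell and none rose, where 13.5% of all genes tested were called, 6.54% as lower and 6.93% as higher. All 35 estimates were below 0, with a median log2 fold change of -0.40 against -0.03 for all genes tested. Called were the sensor Eif2ak3, the folding genes Pdia3, Pdia6, Sdf2l1 and Hyou1, the degradation genes Edem1, Edem2 and Derl3, and the translocation genes Sec61a1, Ssr1, Ssr2 and Ssr3. Of the disulfide isomerases, Pdia6 had 296, 411 and 553 CPM in ND+veh, 241, 380.0 and 458 in HFD+veh and 199.5, 279 and 349.6 in HFD+eRapa, and all 9 HFD+eRapa animals were below the ND+veh median. Its log2 fold change against ND+veh was -0.54 in HFD+eRapa (SE 0.14, edgeR adjusted p = 0.00860) and -0.21 in HFD+veh (SE 0.15, adjusted p = 0.287). For Pdia3 these values were -0.40 (SE 0.13, adjusted p = 0.0472) and -0.08 (SE 0.14, adjusted p = 0.691). Between HFD+eRapa and HFD+veh, the test of the difference itself, Pdia6 had -0.33 (SE 0.14, adjusted p = 0.0768) and Pdia3 -0.32 (SE 0.14, adjusted p = 0.0818), so that neither was shown to differ. Ssr1 and Ssr3 had -0.35 each against ND+veh (SE 0.11 and 0.12, edgeR adjusted p = 0.0402 and 0.0486). The calls of Pdia6, Sdf2l1, Edem1, Edem2, Derl3, Sec61a1 and Ssr2 held in every setting that gave a value and without any 1 library. Those of Eif2ak3, Pdia3, Hyou1, Ssr1 and Ssr3 were lost in 14, 15, 12, 11 and 17 of the 24 removals of 1 library, with adjusted p-values of at most 0.116, 0.111, 0.102, 0.0912 and 0.0908. The highest came without ND+veh replicate 4 for Eif2ak3 and without ND+veh replicate 2 for the others.

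The HFD+veh libraries with the highest macrophage sums, replicates 3 to 6, held the lowest HFD+veh value of 30 of the 35 members and the highest of 8, of which 7 came from replicate 6. These are 4 of the 7 HFD+veh libraries, and the same count over all genes tested was not made. Replicates 3 and 4 held 12 of the lowest values each, and replicate 6, with the highest macrophage sum, held 5. Members differed in this. Xbp1, Hyou1 and Syvn1 were lowest in those 4 libraries, whereas Eif2ak3 was lowest in replicates 1 and 2 (9.91 and 11.5 CPM, against 13.9 to 20.1 in replicates 3 to 6), Dnajb9 likewise (50.5 and 40.1 CPM) and Manf in replicate 2 (68.2 CPM). With the mean level of 23 immune markers (macrophage, lymphocyte, plasma cell and neutrophil) as a covariate, 6 members were called lower in HFD+veh in place of 16, and over all genes tested 8.77% were called in place of 25.9%, 4.54% as lower. Those were Eif2ak3 (-1.12), Hyou1 (-0.82), Edem2 (-0.75), Sec61a1 (-0.47), Ssr2 (-0.43) and Dnajb9 (-0.83), with edgeR adjusted p-values from 4.23e-05 for Edem2 to 0.0462 for Hyou1. With 23 endothelial, stellate cell and cholangiocyte markers as the covariate 11 were called, with 16.6% of all genes, 7.25% as lower. Xbp1 then had -0.38 (adjusted p = 0.0948) with the immune and -0.47 (adjusted p = 0.0117) with the other covariate. The other calls lost with the immune covariate had estimates there of -0.31 for Ern1, -0.26 for Atf6, -0.21 for Dnajb11, -0.76 for Sdf2l1, -0.66 for Manf, -0.77 for Creld2, -0.31 for Edem1, -0.81 for Syvn1, -0.28 for Derl1 and -0.40 for Sec24d, with edgeR adjusted p-values from 0.0526 for Sec24d to 0.447 for Dnajb11. The log2 fold changes of the 5 genes that stayed called under every setting and without any 1 library, Eif2ak3, Hyou1, Edem2, Sec61a1 and Ssr2, ran from -1.26 to -0.48 over the removals of 1 library. Other calls of this comparison were lost with 1 library removed. That of Atf6 was lost without HFD+veh replicate 3, 4 or 5 (adjusted p from 0.0531 to 0.0541), and that of Creld2 without ND+veh replicate 1 or 2 or HFD+veh replicate 3, 4 or 6 (0.0508 to 0.0641). Those of Dnajb11 (0.0585 to 0.0760) and Sdf2l1 (0.0620 to 0.0883) were lost without ND+veh replicate 1, 2 or 3 or HFD+veh replicate 3, 4, 5 or 6, and that of Manf in 14 of 24 removals, with the highest adjusted p, 0.113, without ND+veh replicate 2. Of the 11 settings that were not such a removal, the calls of Manf, Creld2, Sdf2l1 and Dnajb11 were kept in 4, 4, 5 and 6. With voom none of these genes was called (voom adjusted p = 0.0795, 0.0931, 0.114 and 0.0870). The immune covariate, a mean z-score of the markers, ran from -0.50 to 1.73 in HFD+veh and from -1.10 to 0.70 in ND+veh. It was thus not independent of the diet, and these fits cannot tell the part of other cells in the members' fall from that of the diet. That part was not tested in any other way.

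The motifs shown above were then set beside these counts, as a description. Of the 9 genes with an ERSE, Creld2 and Syvn1 were called lower in HFD+veh, and of the 20 with a searched window and no ERSE 8 were called lower, where 9.86% of all genes tested were. The median log2 fold change was -0.27 for the 9 and -0.41 for the 20. The members without a searched window, Atf6, Derl1, Hyou1, Manf, Sec61a1 and Ssr2, were all called lower in HFD+veh. Whether they hold an ERSE is not known here, so these counts do not show how calls differ with the motif. Hspa5, whose window holds an ERSE and the UPRE core, Calr, Canx and Hsp90b1 were not called, while Dnajb11, with an ERSE-II, and Sec24d, with the UPRE core, were.

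The rest of the pathway was described with 115 further genes in 6 lists, of which 113 were tested. Between HFD+veh and ND+veh 39 of them fell and 5 rose, with a median log2 fold change of -0.25. The share called was 38.9% for these 113, 45.7% for the 35 members and 25.9% for all genes tested. By list, 4 of 12 other sensors and activators fell and 2 rose, 5 of 12 outputs of PERK and ATF4 fell, 9 of 24 other folding and glycan control genes fell and 3 rose, 10 of 22 other degradation genes fell, 6 of 26 targeting, translocation and glycosylation genes fell, and 5 of 17 further COPII and export genes fell.

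The largest called fall of each list is given for genes with a mean log2 CPM of at least 1. These were the falls of Trib3, a pseudokinase induced by ATF4 (-1.99, SE 0.45, edgeR adjusted p = 0.00423), Mogs, the glucosidase that starts glycan trimming (-0.98, SE 0.20, adjusted p = 0.00203), Preb, the exchange factor that starts COPII coat assembly (-0.82, SE 0.15, adjusted p = 0.000645), and Srprb, a subunit of the signal recognition particle receptor (-0.80, SE 0.11, adjusted p = 5.96e-05). Creb3l2, a membrane-bound transcription factor of the ATF6 type, fell by 0.75 and Selenos, a membrane selenoprotein of the degradation complex, by 0.56 on the log2 scale. The largest called rises were those of Bak1, an effector of apoptosis (0.67, SE 0.17, adjusted p = 0.00777), and Tmx3, a membrane thioredoxin (0.68, SE 0.24, adjusted p = 0.0429).

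With eRapa on the high-fat diet 19 of the 113 rose and 9 fell, with a median of 0.09. The share called was 24.8%, below the 32.0% of all genes tested (10.9% higher and 21.1% lower). The largest called rise or fall of each list was 0.61 for Creb3l3, a hepatocyte factor of the ATF6 type, and -0.68 for Bak1, 0.97 for Cebpb and -1.10 for Atf3 among PERK and ATF4 outputs, 0.52 for Txndc11 and -0.84 for Tmx3 in folding, and 0.60 for Rad23b and -0.46 for Rnf139 in degradation. The largest called rises in the last lists were 0.33 for Srpr, the other receptor subunit, and 0.51 for Sec24c, a COPII subunit, and no gene of these lists was called lower. All had edgeR adjusted p-values from 0.000442 to 0.0491. Bak1 and Tmx3 rose in HFD+veh and fell in HFD+eRapa against the same HFD+veh animals. Between HFD+eRapa and ND+veh 21 of the 113 fell and 1 rose, with a median of -0.15, which is 19.5% called beside 13.5% of all genes tested.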

How the data were processed

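RNA-seq libraries of isolated hepatocytes were grouped by their labels. Hepatocytes had been isolated by perfusion of the liver with collagenase, low-speed washes and a density gradient. The authors aligned reads with STAR in 2 passes to mm10 with Gencode M23, filtered alignments with SAMtools 1.1.0, and deposited raw counts per gene from HTSeq 0.11.2 and FPKM values from Cufflinks. The strand setting of the counting is not given in the sources used here, so reads of a gene and of an antisense gene over it cannot be told apart. Gene coordinates are from Gencode M21 of GRCm38, the assembly of mm10, which held 55240 of the 55421 identifiers.

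Counts were tested with edgeR 4.0.16 in R 4.3.3 (filterByExpr, TMM, robust glmQLFit and glmQLFTest, Benjamini-Hochberg adjustment, threshold 0.05) in 1 fit of 3 groups with no covariate. The SE is the absolute log2 fold change over the square root of F. CPM used TMM-scaled totals, and log2 CPM a prior count of 2. The other settings were limma 3.58.1 on log2(FPKM + 1) and as voom with group weights, DESeq2 1.42.0, its size factors, no filter or at least 10 counts in every library, only the 2 groups compared, the replicate number as a block, both marker covariates and the removal of each library. The script was tested on simulated counts. No pair of libraries of a group agreed within sampling noise (chi-square per degree of freedom at least 12.3), and each was counted as 1 replicate.

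Named were all members, with values per group for those called in either of the first 2 comparisons and for the sensors and Xbp1, and, in each other list, the called gene with the largest rise and fall in these comparisons at a mean log2 CPM of at least 1. The members and gene lists were chosen with earlier results of these data known. The listed symbols Vimp, Ctage5 and Tf had no row under that name. One cell type marker is not reported here by name.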

Additional observations from a re-analysis of the deposited data

Results flagged for a closer look

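In each of the 105 sets of values (35 members in 3 groups) the lowest and highest animal were compared with the others of the group by Dixon's ratio. A total of 7 values stood apart, where chance, at about 1 in 20 sets, gives 5.25. Of these, 4 were the highest HFD+veh values and came from replicate 6, at log2 CPM 9.61 for Canx (next 8.89), 6.55 for Dnajc10 (next 5.65), 7.55 for Ssr1 (next 6.99) and 8.91 for Ssr3 (next 8.38). The same library had the highest macrophage sum of all, 5780 CPM, and its part in these values was not tested. The other 3 were lowest values, P4hb at 10.30 in ND+veh replicate 8 (next 10.64) and 10.46 in HFD+eRapa replicate 2 (next 10.62), and Derl2 at 6.46 in ND+veh replicate 4 (next 7.11). The call of Dnajc10 between HFD+eRapa and HFD+veh was lost without HFD+veh replicate 6.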

How the results depend on the processing

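The direction of the members' calls against ND+veh did not depend on the setting, since no member was called higher in HFD+veh or HFD+eRapa under any alternative run, but the number of calls did. Between HFD+veh and ND+veh 16 members were called, 11 with voom, 12 in a fit of only the 2 groups, 6 with the immune marker covariate and 11 to 18 with 1 library removed. Between HFD+eRapa and HFD+veh 3 were called, 1 with voom, 1 with the immune marker covariate, 1 with ND+veh library 4 and HFD+veh library 6 both left out (chosen after seeing the data) and 1 to 5 with 1 library removed, with 5 without HFD+veh replicate 1 and 1 without HFD+veh replicate 6 or HFD+eRapa replicate 8. limma on log2(FPKM + 1) called 4 there, all as lower, against 2 higher and 1 lower with edgeR. The 1 call with the immune covariate was none of those 3 but a rise of Eif2ak3 (0.64, edgeR adjusted p = 0.0476). With the other cell marker covariate Eif2ak3 was called higher (0.67, edgeR adjusted p = 0.0490) and Pdia6 lower (-0.53, edgeR adjusted p = 0.0468). Between HFD+eRapa and ND+veh 12 were called, 7 with no expression filter, 20 with the other cell marker covariate and 7 to 14 with 1 library removed, with 7 without ND+veh replicate 1 or 6 or HFD+eRapa replicate 5, 6 or 7. The cause of these changes was not tested. The summed FPKM of the members was 4405 to 4815 in ND+veh, 3471 to 3683 in HFD+veh and 3297 to 3457 in HFD+eRapa with 1 library removed.

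Over all genes, HFD+veh against ND+veh gave 3584 calls, 1866 with voom, 2333 in a fit of only the 2 groups, 1214 with the immune and 2301 with the other cell marker covariate, 2300 without the pair of libraries named above and 2106 to 4479 with 1 library removed, the lowest without HFD+veh replicate 6. Between HFD+eRapa and HFD+veh 4432 were called, 2809 with at least 10 counts in every library, where fewer genes were tested, 908 with the immune and 740 with the other cell marker covariate and 3269 to 5061 with 1 library removed. Between HFD+eRapa and ND+veh 1865 were called, 3020 with the other cell marker covariate and 1462 to 2232 with 1 library removed.

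Replicate numbers are shared between the groups, but the animals are different and the labels state no pairing. The deviations from the group mean of libraries that share a number had a mean correlation of 0.32 for HFD+veh and ND+veh (over 0.1 in 5 of 7 pairs), -0.24 for HFD+eRapa and HFD+veh (2 of 7) and -0.20 for HFD+eRapa and ND+veh (2 of 8). In these comparisons 3 of 7, 0 of 7 and 0 of 8 libraries correlated best with their own number. With the number as a replicate block edgeR called 17, 0 and 13 members (for the 0, 0 members had an unadjusted p under 0.05 either, and without a block DESeq2 called 3 and voom 1), and between HFD+eRapa and HFD+veh 305 genes in all.

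Signs changed only for estimates that were not called. For HFD+veh against ND+veh the immune covariate gave 0.041 for Calr, 0.018 for Pdia3, 0.047 for Derl2 and -0.11 for Dnajc10, the other covariate 0.0088 for Pdia3 and 0.030 for Derl2, log2(FPKM + 1) -0.0012 for Canx, and leaving out the pair of libraries -0.098 for Canx. For HFD+eRapa against HFD+veh the immune covariate gave -0.15 for Ern1, -0.012 for Atf6, -0.059 for Pdia4, -0.062 for P4hb, -0.24 for Dnajb11, -0.15 for Edem1, -0.078 for Sec61a1 and -0.037 for Ssr2. The other covariate gave -0.13 for Ern1, -0.052 for Atf6, -0.00099 for Hspa5, -0.15 for Pdia4, -0.095 for P4hb, -0.33 for Dnajb11, -0.0013 for Manf, -0.068 for Creld2, -0.0053 for Hyou1, -0.22 for Edem1, -0.049 for Sel1l, -0.12 for Sec61a1, -0.095 for Sec23b and -0.083 for Ssr2. In the same comparison log2(FPKM + 1) gave -0.022 for Atf6, -0.027 for Hspa5, -0.032 for Pdia4 and -0.068 for Edem1, voom 0.019 and no filter 0.017 for Calr, at least 10 counts -0.023 for Edem1, and the pair of libraries left out -0.0018 for Edem1 and 0.055 for Ssr1. For HFD+eRapa against ND+veh Herpud1 had 0.011 with voom and 0.073 with the replicate block.

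With 1 library removed, estimates that changed sign ran from -0.25 to 0.036 for Hsp90b1, -0.094 to 0.14 for Canx and -0.042 to 0.32 for Dnajc10 in HFD+veh against ND+veh. In HFD+eRapa against HFD+veh they ran from -0.064 to 0.20 for Hspa5, -0.093 to 0.10 for Calr, -0.082 to 0.11 for Pdia4, -0.030 to 0.25 for Manf, -0.047 to 0.062 for Edem1, -0.027 to 0.16 for Sec23b and -0.13 to 0.041 for Ssr1, and in HFD+eRapa against ND+veh from -0.16 to 0.12 for Herpud1 and -0.19 to 0.022 for Sec61b. Of 1152 results for single members in settings with no single library removed, 999 kept their direction and their side of the threshold, 69 lost a call, 43 gained one and 41 changed sign.

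The data give transcript levels only. They hold no measure of spliced Xbp1, of phosphorylated PERK or eIF2 alpha, or of protein. Derl3 had at most 23.1 CPM and the largest SE of the members in each comparison.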
